A study of Homo sapiens with 12 samples.

Results

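Collagens, laminins and integrins were followed as 1 group of genes in LN229, an established human glioblastoma cell line. Members were chosen by symbol: every collagen chain, every laminin chain and every integrin alpha or beta subunit listed in the count tables. This gave 81 of 22257 genes, of which 43 encode collagen chains, 12 laminin chains and 26 integrin subunits (18 alpha, 8 beta). Total RNA was sequenced from 12 libraries in 3 groups of 4 replicates: 1 mM glucose, 1 mM glucose plus 5 mM acetate, and 10 mM glucose. All cells were grown to 80% confluence in 6-well dishes and then held for 24 hours in RPMI with 10% dialyzed serum, so the groups shared every stated condition except glucose and acetate. A single line was used, and nothing in the labels says that replicates were separate cultures, so the spread behind each p-value is that of these libraries and may be only technical.

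Collagens are trimers of alpha chains wound into a triple helix, and laminins are trimers of 1 alpha, 1 beta and 1 gamma chain that form the sheet of the basement membrane. Integrins are receptors of 1 alpha and 1 beta subunit that bind these proteins and link them to the actin cytoskeleton. Glioblastoma cells are known to lay down basement membrane proteins and to use integrins when they adhere and invade.

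Libraries held 24.4 to 27.2 megacounts each, taking 1 transcript per gene. Genes of a mesenchymal glial line were abundant, with VIM at 3683 to 5971 CPM (counts per megacount, scaled between libraries by TMM) and NES at 399 to 1081 CPM, whereas the astroglial genes GFAP and SOX9 stayed at or below 1.47 and 0.702 CPM. Means at 1 mM, with acetate and at 10 mM were 5247, 4472 and 3767 CPM for VIM and 452, 492 and 1053 for NES. In that order SOX2 averaged 14.3, 17.7 and 75.4 CPM, EGFR 128, 115 and 85.6, and CD44 1048, 980 and 759. Endothelial markers summed to at most 1.66 CPM, blood and microglial markers to at most 1.95 CPM, and of the 4 neuronal markers STMN2 had 0 counts and RBFOX3 at most 0.571 CPM. The sum of the 6 fibroblast and pericyte markers differed between the groups. It was 28.3 to 35.1 CPM at 1 mM glucose, 37.5 to 41.8 with acetate and 52.2 to 58.1 at 10 mM. The markers did not all move together. In that order LUM averaged 14.98, 22.89 and 25.76 CPM, and PDGFRB, DCN and THY1 also rose at each step. ACTA2 (8.52, 7.547 and 16.07 CPM) and RGS5 (2.404, 1.93 and 2.652) had lower means with acetate than in either other group. The neuronal sum, mostly MAP2 (41.5 to 77.2 CPM) and SNAP25 (8.60 to 16.9 CPM), was 54.8 to 80.5, 52.8 to 66.9 and 82.9 to 93.3 CPM in the same order. The part of any of these lists in the results was not tested. In RNA from bulk cultures, fewer cells of a kind and less RNA per cell cannot be told apart.

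A pair of libraries stood apart before any comparison. In replicate 3 at 1 mM glucose and replicate 1 with acetate, a gene's deviation from its mean over all 12 libraries fell with transcript length (Spearman's rho -0.49 and -0.48 across genes, against -0.18 to 0.23 in the other 10 libraries). The members are long: the 65 that could be tested had a median transcript length of 5919 bases, against 2970 for all genes tested. The part of length in the members' levels was not tested. For COL12A1, counts were given for a short and a long transcript version. The count of the short version was 90.2% and 90.1% of the long one in that pair of libraries and 70.3% to 81.6% in the other 10. Acetate replicate 1 was the lowest library of its group for 47 of the 65 tested members (72.3%, against 37.8% of all genes tested), and 1 mM replicate 3 for 37 (56.9%, against 37.5%). Without this pair, 6 members gained and 1 lost a call for 10 mM against 1 mM glucose, 15 gained and 1 lost one for acetate, and 5 gained one for 10 mM glucose against acetate. Those calls are named below with their values. Over all genes the calls without the pair rose too, in the same order from 67.5% to 72.7%, 13.7% to 25.8% and 62.8% to 68.7%.

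**Figure D1:**
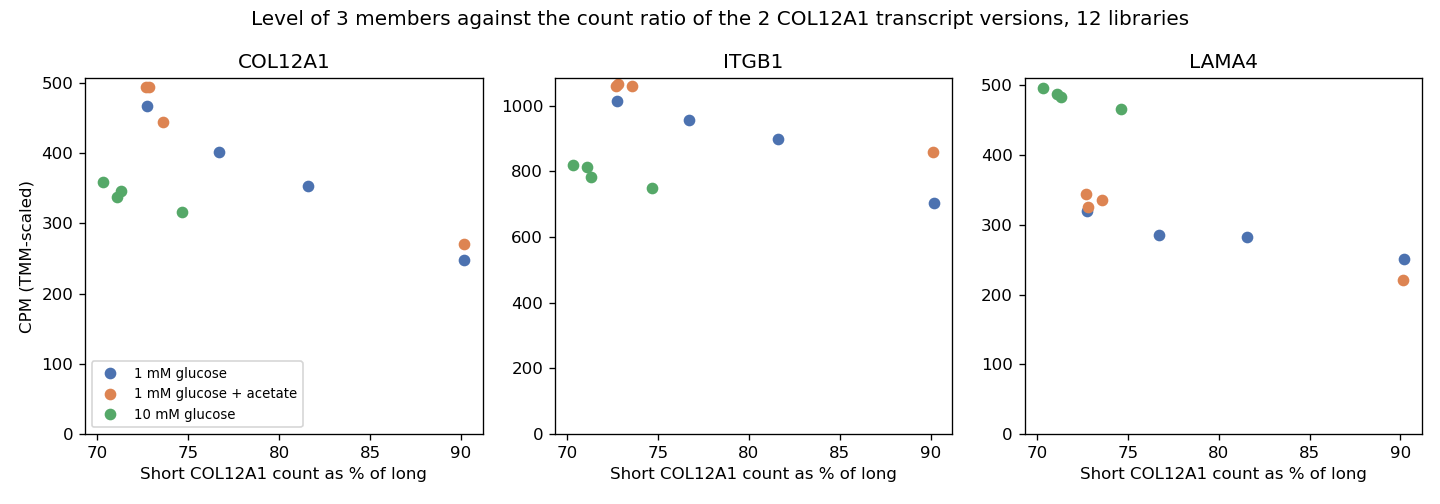
Level of COL12A1, ITGB1 and LAMA4 (y axis, CPM) against the count of the short COL12A1 transcript version as a percentage of the long one (x axis), 1 point per library, coloured by group. The pair of libraries near 90% holds the lowest COL12A1 values, 248 and 271 CPM. The COL12A1 level is that of the long version, which is also the divisor on the x axis. The axes of that panel are therefore not independent.

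Of the 81 members, 16 had too few counts to be tested. These were COL6A5, COL6A6, COL10A1, COL14A1, COL17A1, COL20A1, COL23A1, COL25A1, COL28A1, LAMB4, ITGA8, ITGAD, ITGAL, ITGAM, ITGAX and ITGB6, with at most 97 counts each over the 12 libraries. ITGA8 had 0 counts of 313.5 megacounts, which allows a level of up to 0.00957 CPM. Together the members held 0.758% to 0.922% of all counts at 1 mM glucose, 0.813% to 1.02% with acetate and 1.05% to 1.10% at 10 mM. The lowest share at 10 mM was above the highest in either other group. These are shares of raw library totals. On that scale the median log2 fold change of all genes was itself 0.14 for 10 mM against 1 mM glucose. The lowest shares at 1 mM and with acetate were those of replicate 3 and replicate 1, the pair that stood apart.

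Per kilobase of transcript, the most abundant members were an integrin pair and a laminin chain. ITGB1, the beta subunit shared by most matrix-binding integrins, averaged 240 CPM per kb at 1 mM glucose, followed by ITGA3, a laminin-binding alpha subunit, at 226 and LAMB1 at 138. COL4A2, a basement membrane collagen chain, came next at 96.6 CPM per kb. COL6A2 (84.2), COL11A1 (76.8), LAMC1 (71.0), ITGA6 (67.0), ITGB8 (66.6) and COL9A3 (66.4) completed the top 10 at 1 mM. At 10 mM glucose COL11A1 (134), COL9A3 (114) and ITGB3 (104) had moved up, and COL6A2 had dropped to 45.9 CPM per kb. COL1A2 (0.105) and COL3A1 (0.422), chains of the common fibrillar collagens of connective tissue, were close to the floor at 1 mM glucose.

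**Figure D2:**
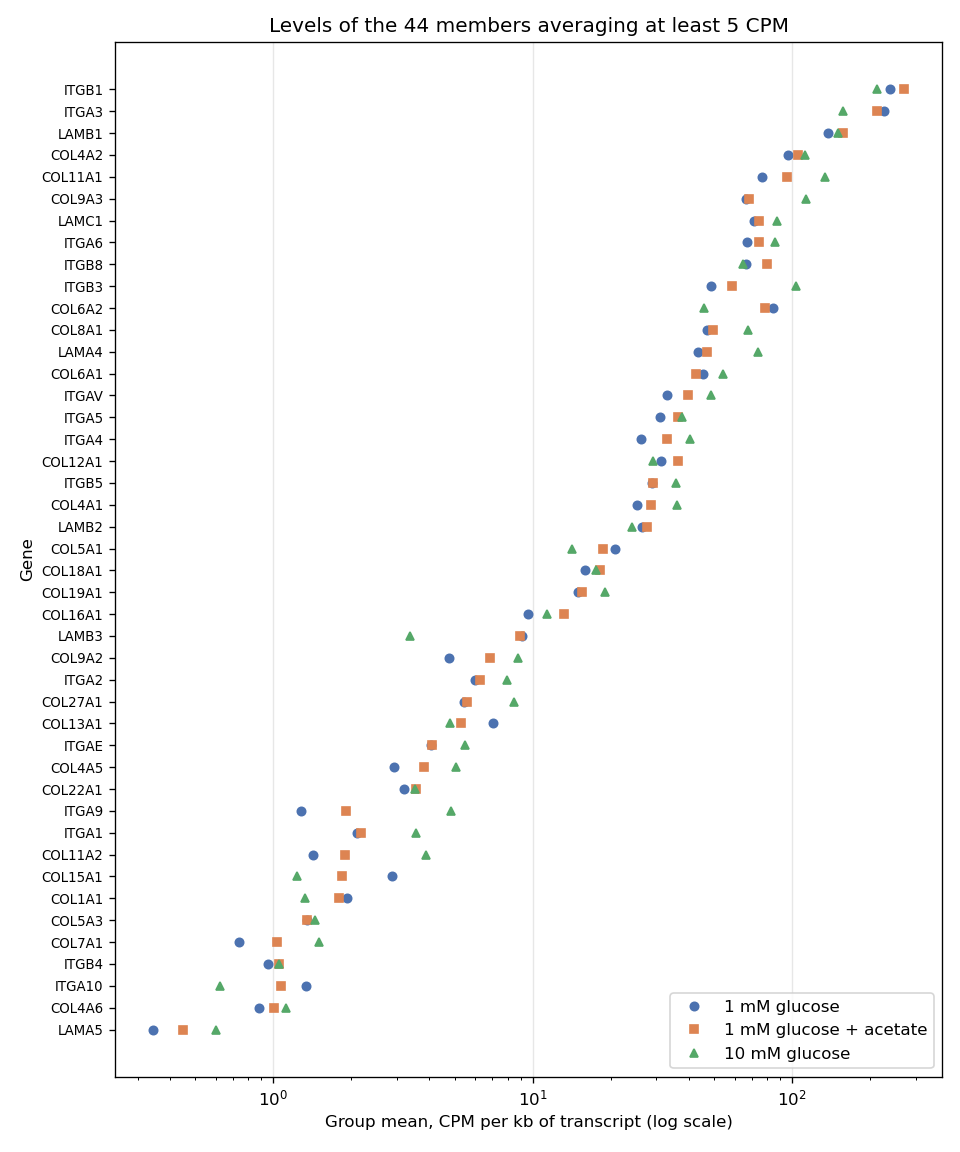
Group mean level of the 44 members averaging at least 5 CPM, in CPM per kb of transcript (x axis, log scale), 1 row per gene, with circles for 1 mM glucose, squares for 1 mM glucose plus acetate and triangles for 10 mM glucose. ITGB1, ITGA3 and LAMB1 lead in every group, while COL6A2 and LAMB3 sit lower at 10 mM and ITGB3 and ITGA9 higher.

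Glucose moved many members, and more of them up than down. With 10 mM against 1 mM glucose, 33 of the 65 tested members (50.8%) were higher and 12 (18.5%) lower at an adjusted p under 0.05, against 33.7% and 33.8% of all genes tested. The total share called, 69.2%, was near the background of 67.5%. The members' median log2 fold change was 0.24, beside 0.00 for all genes. With each library's trend over transcript length removed, that median was 0.12, and 30 members were higher and 18 lower, while 70.6% of all genes were called. Scaling by library totals shifted the median of all genes by 0.14 on the log2 scale and called 38 members higher and 10 lower, while 63.3% rather than 49.9% of all calls were then higher. By family, 17 of 34 tested collagens were higher and 5 lower, 3 of 11 laminins higher and 4 lower, 10 of 13 integrin alpha subunits higher and 3 lower, and 3 of 7 beta subunits higher with the other 4 not called. The glucose counts by family here and by class below stand beside 33.7% higher and 33.8% lower of all genes.

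**Figure D3:**
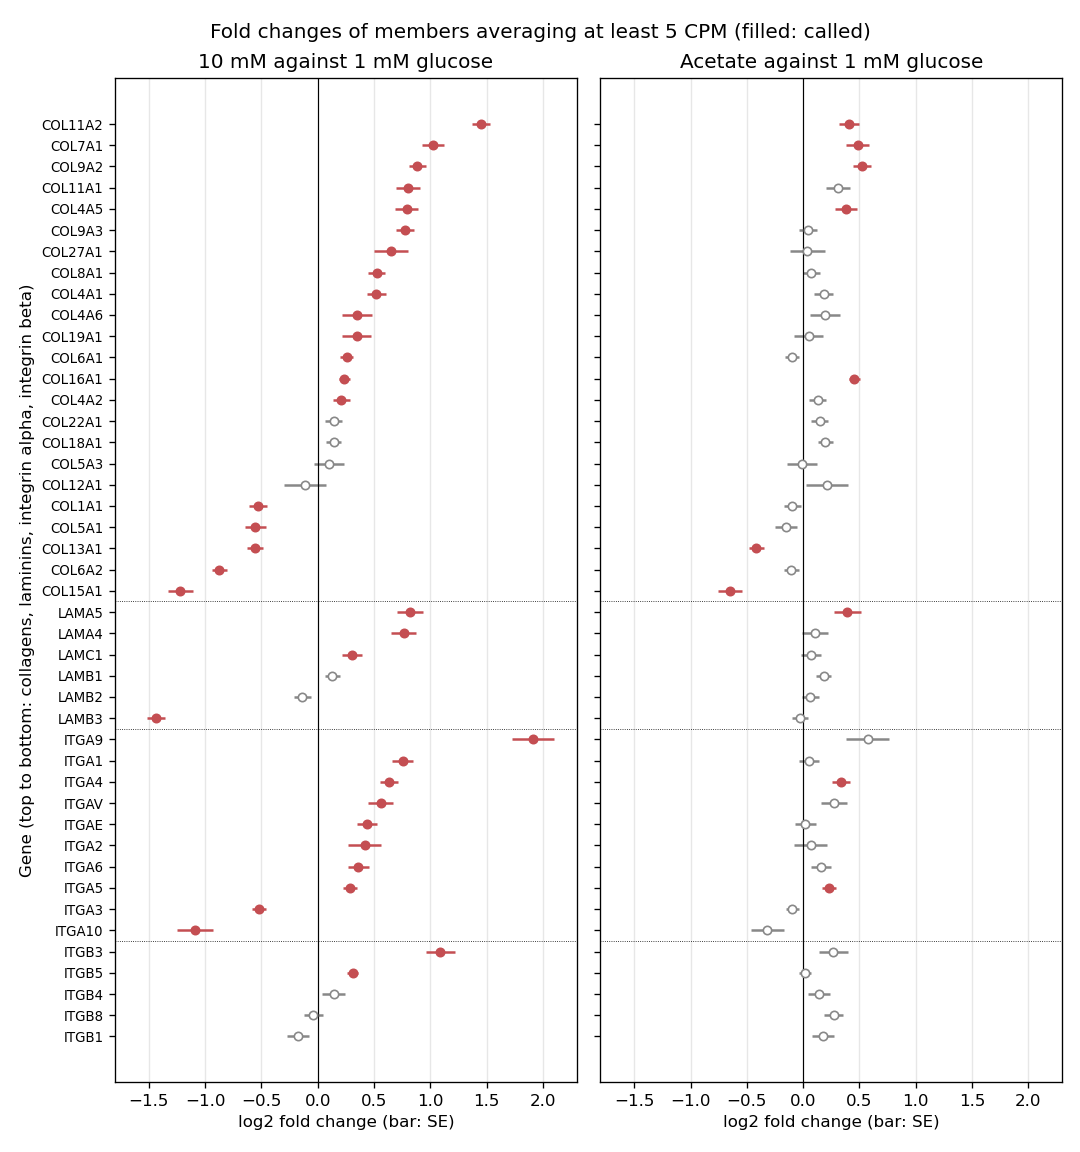
Log2 fold changes with standard errors for the 44 members averaging at least 5 CPM, for 10 mM against 1 mM glucose (left) and acetate against 1 mM glucose (right), grouped by family from top to bottom. Filled red points were called at an adjusted p under 0.05; ITGA9 is the farthest right and LAMB3 the farthest left in the glucose panel.

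Among the 11 fibril-forming collagens, 4 rose with glucose and 2 fell, in a comparison where 67.5% of all genes were called. COL11A1, the alpha1 chain of type XI collagen, which sits inside cartilage-type fibrils, stood at 533, 648, 493 and 557 CPM at 1 mM glucose, 536, 701, 756 and 775 with acetate, and 987, 1012, 947 and 948 at 10 mM. Every 10 mM library lay above every other, whereas the acetate and 1 mM libraries overlapped. The 10 mM level was 1.75-fold that at 1 mM (log2 0.80, SE 0.10, adjusted p = 7.59e-06). Its partner chain COL11A2 read 8.83, 10.1, 8.97 and 8.73 CPM at 1 mM, 10.5, 11.5, 13.2 and 13.4 with acetate, and 25.5, 25.5, 25.7 and 23.2 at 10 mM. The 3 groups did not overlap, and the order was the same as for COL11A1. COL11A2 was 2.73-fold higher at 10 mM (log2 1.45, SE 0.08, adjusted p = 1.20e-09) and rose by 0.41 (SE 0.09, adjusted p = 0.00636) with acetate.

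The bases upstream of COL11A1, the collagen with the highest level per kb at 10 mM glucose, are shown with the CCAAT box, the GC box GGGCGG and the TATA box TATAAA in capitals on either strand. They end at the base before the annotated start on the minus strand at chr1:103108523-103108772 (RefSeq, GRCh38.p14, whereas the counts were made on hg19).
COL11A1: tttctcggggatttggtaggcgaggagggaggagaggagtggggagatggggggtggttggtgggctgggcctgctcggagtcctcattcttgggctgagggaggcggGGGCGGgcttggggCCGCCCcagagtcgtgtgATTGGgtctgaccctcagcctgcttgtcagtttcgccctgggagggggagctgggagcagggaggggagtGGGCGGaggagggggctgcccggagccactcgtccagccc
This stretch holds 3 GC boxes, 1 CCAAT box and 0 TATA boxes.

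COL5A1 and COL1A1 went the other way. COL5A1, the type V chain that starts fibrils of type I collagen, read 199, 186, 151 and 167 CPM at 1 mM, 130, 157, 176 and 169.5 with acetate, and 121, 126, 120.3 and 112 at 10 mM. The 10 mM libraries were below all others and the remaining groups overlapped, with a fall of 0.55 (SE 0.10, adjusted p = 1.21e-04). COL1A1 fell by 0.53 (SE 0.08, adjusted p = 2.75e-05), from 11.5 to 13.8 CPM at 1 mM to 8.51 to 9.42 at 10 mM. COL1A2, which encodes the other chain of type I collagen, stayed between 0.366 and 1.23 CPM in all 12 libraries and was not called (adjusted p = 0.0524, or 0.0451 without the pair of libraries that stood apart). COL27A1 rose by 0.65, from 31.6 to 49.1 CPM at 1 mM to 64.8 to 68.1 at 10 mM. COL2A1, the cartilage fibril chain, was at 0.123 to 0.468 CPM at 1 mM, which is a handful of counts, and at 1.53 to 1.89 at 10 mM (log2 2.57, SE 0.25). COL3A1, COL5A2, COL5A3 and COL24A1 were not called for glucose.

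Type IV collagen, the network former of basement membranes, rose in 4 of its 6 chains with glucose, and the other 2 were not called. COL4A1 read 165, 183, 153 and 166 CPM at 1 mM, 154, 192, 208 and 204 with acetate, and 241, 239.9, 244 and 232 at 10 mM. All 10 mM libraries were above the rest (log2 0.52, SE 0.08, adjusted p = 5.80e-05). COL4A2 read 637, 646, 603 and 623 CPM at 1 mM, 554, 694, 758 and 737 with acetate, and 725, 740.4, 744 and 694 at 10 mM. Its 1 mM and 10 mM libraries did not overlap, but the difference was small (log2 0.21, SE 0.08, adjusted p = 0.029) and was 0.07 (adjusted p = 0.214) with the length trend removed; leaving out any 1 of 5 libraries, 1 mM replicate 3 or 4 or 10 mM replicate 1, 2 or 3, gave an adjusted p of 0.0541 to 0.0667. COL4A5 rose by 0.79 (SE 0.10, adjusted p = 5.96e-06), from 15.9 to 20.8 CPM to 30.7 to 34.9. COL4A6 rose by 0.35 (SE 0.13, adjusted p = 0.0314), a call lost without 1 mM replicate 3 (log2 0.22, adjusted p = 0.0879) or 10 mM replicate 2 or 3 (adjusted p = 0.0631 and 0.086), with the length trend removed (log2 0.21, adjusted p = 0.0602) and with the replicate number as a block (adjusted p = 0.0596). Without the pair of libraries that stood apart it was 0.22 (adjusted p = 0.0436). The chains COL4A3 and COL4A4 were not called.

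COL4A1 and COL4A2 are transcribed away from each other, and their annotated starts lie 127 bases apart on chromosome 13. The bases from one start to the other, chr13:110307157-110307284 on the plus strand (RefSeq, GRCh38.p14), are shown because both genes share them, with the same boxes in capitals.
COL4A1 to COL4A2 start: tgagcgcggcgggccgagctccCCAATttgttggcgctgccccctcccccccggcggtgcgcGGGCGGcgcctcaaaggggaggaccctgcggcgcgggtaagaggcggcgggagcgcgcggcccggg
It holds 1 CCAAT box and 1 GC box. With this stretch in common, the COL4A1 to COL4A2 ratio of CPM per kb was 0.249 to 0.279 at 1 mM glucose, 0.269 to 0.273 with acetate and 0.318 to 0.329 at 10 mM. Ratios at 10 mM were above all others, so the 2 chains did not change equally.

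Type VI collagen, a beaded-filament protein built from 1 chain of each kind, split. COL6A2 read 324, 273, 283 and 285 CPM at 1 mM, 260.0, 266, 296 and 262 with acetate, and 149, 163, 169 and 153 at 10 mM. The 10 mM libraries were far below the other 8, which overlapped, and COL6A2 fell by 0.88 (SE 0.07, adjusted p = 2.57e-08). COL6A1 read 196, 185, 205 and 183 CPM at 1 mM, 165, 180, 198 and 178 with acetate, and 227, 232, 242 and 219 at 10 mM. Here the 10 mM libraries were the highest, with a rise of 0.26 (SE 0.06, adjusted p = 0.00175). The COL6A1 to COL6A2 ratio per kb therefore went from 0.541 ± 0.041 (SD) at 1 mM and 0.543 ± 0.016 with acetate to 1.19 ± 0.040 at 10 mM, a shift present in all 4 libraries. COL6A3, the longest chain, was at 2.26 to 4.65 CPM and was not called for glucose. The count of a second COL6A2 transcript version followed the first in every group, at 93.6%, 94.4% and 93.4% of it on average.

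**Figure D4:**
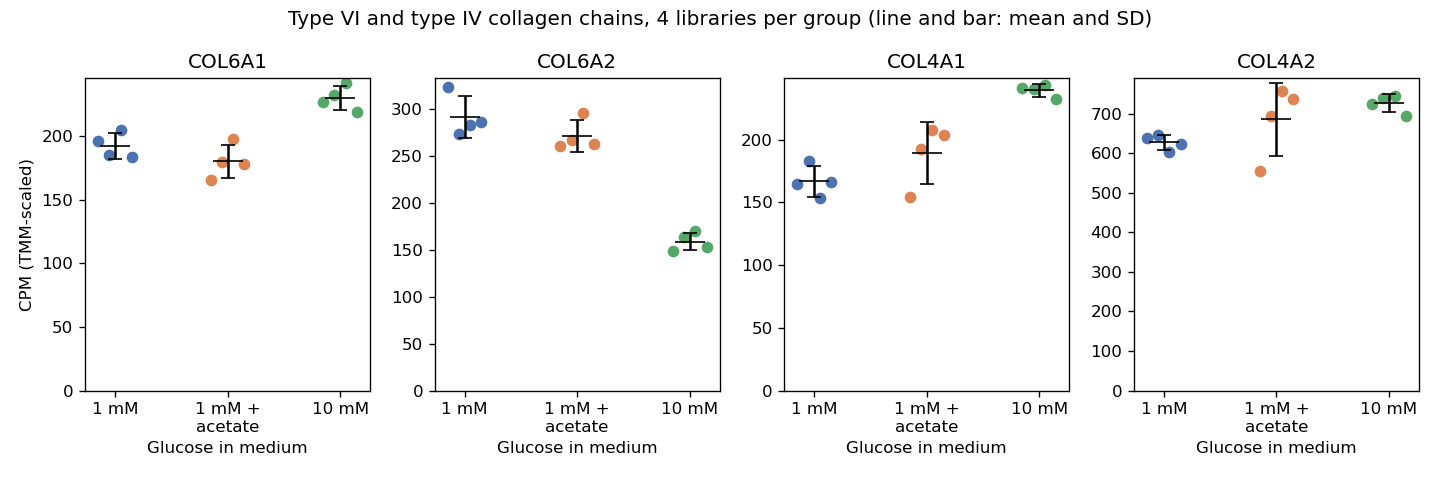
CPM of COL6A1, COL6A2, COL4A1 and COL4A2 in each library, with 4 points per group and the mean and SD as a line and bar. At 10 mM glucose COL6A2 sits at 149 to 169 CPM, below all other libraries, while COL6A1 and COL4A1 sit above them.

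The bases upstream of COL6A2 are shown because this was the most abundant collagen to fall, at chr21:46097862-46098111 on the plus strand (RefSeq, GRCh38.p14), marked as before.
COL6A2: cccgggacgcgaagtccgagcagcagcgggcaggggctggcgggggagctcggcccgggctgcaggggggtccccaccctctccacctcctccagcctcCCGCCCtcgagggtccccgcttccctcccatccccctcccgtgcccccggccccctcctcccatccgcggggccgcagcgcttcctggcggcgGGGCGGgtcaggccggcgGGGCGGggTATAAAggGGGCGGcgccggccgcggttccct
It holds 4 GC boxes, 1 TATA box and 0 CCAAT boxes. RefSeq promoter windows of 300 bases were matched for 57 of the 81 members (76 windows). On either strand CCAAT was in 26.3% of the members' windows and 34.6% of all 35116 windows, GGGCGG in 56.6% and 45.0%, TATAAA in 13.2% and 11.5%, and TGANTCA, the AP-1 site, in 5.26% and 7.71%. Those shares are descriptions of the letters in these windows.

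Of the 8 tested fibril-associated collagens, which decorate the surface of fibrils, 6 rose with glucose and 2 were not called. Type IX collagen rose in all 3 chains. COL9A3 read 161, 144, 190.2 and 164 CPM at 1 mM, 178, 153, 184 and 165 with acetate, and 265, 309, 281 and 274 at 10 mM (log2 0.77, SE 0.08, adjusted p = 1.13e-06). The 10 mM libraries were the highest, and the other groups overlapped. COL9A2 read 13.6, 11.9, 15.7 and 13.3 CPM at 1 mM, 19.8, 19.5, 20.4 and 18.7 with acetate, and 24.8, 27.1, 24.1 and 24.6 at 10 mM. Its 3 groups did not overlap, and it rose by 0.89 (SE 0.08) with glucose and by 0.52 (SE 0.08, adjusted p = 6.28e-04) with acetate. COL9A1, at 0.773 to 1.18 CPM, rose to 1.93 to 2.55 with 10 mM glucose and fell to 0.496 to 0.643 with acetate (adjusted p = 0.0269, or 0.0543 without the pair of libraries that stood apart). COL12A1, among the most abundant of this class, was not called in any comparison with all libraries and varied widely, from 248 to 468 CPM at 1 mM and 271 to 494 with acetate. Without the pair that stood apart it was lower at 10 mM than at 1 mM by 0.26 (adjusted p = 0.00181) and lower than with acetate by 0.49 (adjusted p = 1.87e-06). COL19A1 (log2 0.35, or 0.22 with the length trend removed) and COL21A1 (1.03, adjusted p = 0.0287, or 0.0527 without the pair) rose but lost the call without single libraries of either glucose group, with adjusted p up to 0.069 and 0.0834. COL22A1 was not called.

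COL16A1, another fibril-associated chain, was highest with acetate. It read 56.3, 56.1, 53.9 and 54.9 CPM at 1 mM, 74.4, 70.6, 77.8 and 80.5 with acetate, and 66.6, 65.3, 66.5 and 62.1 at 10 mM. No groups overlapped, and the acetate libraries were on top. The rise was 0.46 with acetate (SE 0.05, adjusted p = 8.86e-05) and 0.24 with glucose (SE 0.05, adjusted p = 9.39e-04, or 0.0661 with the length trend removed), and the 10 mM level was lower than that with acetate by 0.22 on the log2 scale (adjusted p = 0.00176, or 0.062 when scaled by library totals).

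The remaining collagens moved one by one. COL8A1, a network collagen of vessel and eye membranes, rose by 0.52 (SE 0.08, adjusted p = 2.35e-05), from 135 to 153 CPM at 1 mM to 199.6 to 209.8 at 10 mM. COL7A1, the anchoring fibril collagen, read 6.72, 6.90, 6.39 and 7.38 CPM at 1 mM, 7.87, 8.81, 10.9 and 10.8 with acetate, and 14.9, 13.5, 13.8 and 13.6 at 10 mM. Its groups were separate, and it rose by 1.03 (SE 0.10, adjusted p = 3.67e-07) with glucose and by 0.49 (SE 0.10, adjusted p = 0.00635) with acetate. COL15A1, a basement membrane collagen, read 18.7, 17.7, 13.1 and 13.8 CPM at 1 mM, 9.90, 10.7, 10.2 and 9.52 with acetate, and 6.85, 6.64, 6.71 and 6.98 at 10 mM. Its groups were also separate but in the opposite order, and it fell by 1.22 (SE 0.11, adjusted p = 1.35e-07) with glucose and by 0.65 (SE 0.10, adjusted p = 9.84e-04) with acetate. COL13A1, a transmembrane collagen of adhesion sites, fell by 0.56 (SE 0.07) with glucose and by 0.41 (SE 0.07, adjusted p = 0.00124) with acetate, from 20.5 to 22.6 CPM at 1 mM to 14.04 to 15.7 and 14.6 to 17.8. COL18A1, the endostatin precursor, was not called in any comparison with all libraries, but without the pair that stood apart it was higher with glucose by 0.17 (adjusted p = 0.0068) and with acetate by 0.28 (adjusted p = 0.00131).

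Of the 11 tested laminin chains, 3 rose with glucose and 4 fell. LAMA4, LAMB1, LAMB2 and LAMC1 are the chains of the laminins of vessel and mesenchymal membranes. LAMA4 read 285, 319.9, 251 and 283 CPM at 1 mM, 221, 335, 345 and 326 with acetate, and 483, 496, 466 and 487 at 10 mM. The 10 mM libraries stood clear of the others, which overlapped (log2 0.76, SE 0.11, adjusted p = 3.03e-05). LAMC1 read 586, 611, 486 and 559 CPM at 1 mM, 472, 628, 641 and 617 with acetate, and 700.4, 704, 671 and 691 at 10 mM, a rise of 0.30 (SE 0.09, adjusted p = 0.00828), or of 0.14 (adjusted p = 0.0037) with the length trend removed. Here too the 10 mM libraries were above the rest, by a small margin over acetate. LAMB1 was at 711 to 840.4 CPM at 1 mM, 781 to 952 with acetate and 849 to 879 at 10 mM, and was not called (adjusted p = 0.11). Its 1 mM and 10 mM libraries did not overlap. Under library totals LAMB1 was higher with glucose by 0.27 (adjusted p = 0.00222) and with acetate by 0.22 (adjusted p = 0.0389). With the length trend removed its glucose change was 0.02 (adjusted p = 0.663). LAMB2 read 167, 155, 132 and 147 CPM at 1 mM, 140.3, 154.5, 174 and 160.1 with acetate, and 138.5, 138, 139 and 131 at 10 mM. With all libraries it was not called for glucose (log2 -0.14, adjusted p = 0.113), but it was lower by 0.20 (adjusted p = 0.00166) without the pair that stood apart and by 0.25 (adjusted p = 1.36e-04) with the length trend removed; under library totals the value was 0.00. It was lower at 10 mM than with acetate by 0.20 (SE 0.07, adjusted p = 0.0273), a call lost under library totals (adjusted p = 0.243). LAMA5, a broad epithelial and vessel chain at 3.63 to 4.08 CPM, rose by 0.82 (SE 0.12, adjusted p = 1.89e-05) to 6.77 to 6.97.

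LAMB3, a beta chain of epithelial anchoring laminin, read 41.5, 38.5, 39.5 and 37.7 CPM at 1 mM, 33.5, 39.1, 41.4 and 40.2 with acetate, and 13.7, 15.4, 15.7 and 13.4 at 10 mM. The 10 mM libraries were far below the other 8, which overlapped. LAMB3 fell by 1.44 (SE 0.08, adjusted p = 5.54e-10) with glucose, and acetate gave -0.03 (SE 0.07, adjusted p = 0.837), a value whose sign changed without the pair of libraries that stood apart (0.04). LAMA3, an epithelial alpha chain, was not called against 1 mM glucose for either treatment with all libraries; its glucose change was -0.49 (adjusted p = 0.0206) without the pair and -0.59 (adjusted p = 0.00254) with the length trend removed. LAMA1, the embryonic alpha chain, was at 1.35 to 1.85 CPM at 1 mM, 0.813 to 1.10 with acetate and 0.218 to 0.290 at 10 mM, and it fell by 2.64 (SE 0.20, adjusted p = 3.13e-08) with glucose and by 0.77 (SE 0.16, adjusted p = 0.00529) with acetate. LAMC3 fell by 0.72 (adjusted p = 0.0411, or up to 0.148 without single libraries), and LAMA2 was not called (-0.46, adjusted p = 0.0789), or -0.65 (adjusted p = 0.0266) with the length trend removed.

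All 13 tested integrin alpha subunits passed the test for glucose, 10 of them higher, in a comparison where 67.5% of all genes were called. ITGA3, the most abundant, was among the 3 that fell: it read 1126, 1103, 1091 and 1099 CPM at 1 mM, 923, 1018, 1123 and 1077 with acetate, and 772, 768, 796 and 743 at 10 mM. Its 10 mM libraries were below all others (log2 -0.52, SE 0.06, adjusted p = 1.65e-06). ITGA6, also a laminin-binding subunit, rose by 0.36 (SE 0.09, adjusted p = 0.0024), from 309.8 to 429 CPM to 463 to 498. ITGA7 rose by 0.51 with glucose and by 0.47 (SE 0.10, adjusted p = 0.00849) with acetate at 2.61 to 4.64 CPM.

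Of the 4 collagen-binding alpha subunits, 2 rose with glucose and 2 fell. ITGA1 read 22.3, 25.9, 19.3 and 22.8 CPM at 1 mM, 19.9, 24.7, 23.8 and 25.4 with acetate, and 38.9, 41.1, 36.2 and 36.3 at 10 mM (log2 0.75, SE 0.09, adjusted p = 3.82e-06). All 10 mM libraries were above the other 8, which overlapped. ITGA2 rose by 0.42 (SE 0.15, adjusted p = 0.0197, or 0.0528 without 1 mM replicate 4), or by 0.28 (adjusted p = 9.20e-04) without the pair and 0.27 (adjusted p = 0.0039) with the length trend removed. ITGA10 fell by 1.09 (SE 0.16, adjusted p = 2.27e-05), reading 7.86, 7.64, 5.89 and 6.73 CPM at 1 mM and 3.52, 3.67, 2.95 and 3.06 at 10 mM, and ITGA11 by 0.37 (adjusted p = 0.0411, or 0.184 when scaled by library totals).

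The 5 tested alpha subunits that bind RGD motifs or belong to the alpha4 and alpha9 pair all rose with glucose. ITGA9, a receptor for tenascin-C and osteopontin, read 10.3, 12.6, 8.34 and 9.26 CPM at 1 mM, 8.61, 18.9, 16.6 and 16.2 with acetate, and 43.2, 38.0, 35.0 and 36.5 at 10 mM. The 10 mM libraries stood far above the rest, and acetate replicate 1 was the lowest of its group. ITGA9 was 3.77-fold higher at 10 mM (log2 1.91, SE 0.19, adjusted p = 3.56e-07). Its relative ITGA4 read 105, 126, 95.6 and 111 CPM at 1 mM, 122, 137, 143 and 151 with acetate, and 168, 178, 164 and 169.6 at 10 mM, rising by 0.64 (SE 0.08, adjusted p = 5.78e-06) with glucose and by 0.34 (SE 0.08, adjusted p = 0.0122) with acetate. ITGAV, the alpha subunit of vitronectin receptors, read 241, 280.3, 175 and 230.0 CPM at 1 mM, 241, 289, 289 and 301 with acetate, and 329.7, 365, 325 and 346 at 10 mM, a rise of 0.56 (SE 0.11, adjusted p = 4.55e-04). For ITGA4 and ITGAV alike, each 10 mM library was above all others, and acetate and 1 mM libraries overlapped. ITGA5, the fibronectin receptor, rose by 0.28 (SE 0.06, adjusted p = 7.82e-04) with glucose and by 0.23 (SE 0.06, adjusted p = 0.0212) with acetate, from 134 to 145 CPM to 164 to 170.1 and 143 to 177; the acetate call was lost without 1 mM replicate 4 or acetate replicate 2 or 3 (adjusted p = 0.0639 to 0.0727). ITGA2B rose by 1.55 with glucose and by 0.66 (adjusted p = 0.0157, or 0.0562 without 1 mM replicate 1) with acetate at 1.79 to 7.24 CPM, and ITGAE by 0.44 with glucose.

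Of the 7 tested beta subunits, which pair with these alphas, 3 rose with glucose. ITGB3, the partner of ITGAV in the vitronectin receptor, read 206, 223, 161 and 188 CPM at 1 mM, 168, 265, 267 and 238 with acetate, and 426, 429.5, 388 and 414 at 10 mM. Its 10 mM libraries stood above all others, 2.13-fold over 1 mM glucose (log2 1.09, SE 0.13, adjusted p = 2.69e-06). ITGB5, another partner of ITGAV, read 123, 119.8, 135 and 125 CPM at 1 mM, 128, 129, 125 and 128 with acetate, and 157, 151, 164 and 152 at 10 mM (log2 0.31, SE 0.05, adjusted p = 6.73e-05). Its 10 mM libraries were again the highest, and the rest overlapped. ITGB7, with a mean of 0.943 CPM over the 12 libraries, rose by 0.96 (SE 0.22, adjusted p = 0.00134).

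ITGB1 and ITGB8, the most abundant beta subunits at 1 mM glucose, were not called for either treatment against 1 mM glucose. ITGB1 read 955, 1016, 704 and 898 CPM at 1 mM, 859, 1060, 1060 and 1065 with acetate, and 782, 819, 749.9 and 814 at 10 mM. Groups at 1 mM and 10 mM overlapped only through 1 mM replicate 3. Without the pair of libraries that stood apart, ITGB1 was lower at 10 mM than at 1 mM by 0.27 on the log2 scale (adjusted p = 1.55e-05), against 0.18 (SE 0.10, adjusted p = 0.13) with all 12. ITGB8 read 576, 688, 478 and 589.7 CPM at 1 mM, 665, 669, 711 and 769 with acetate, and 541, 592, 574 and 566 at 10 mM. The acetate libraries were all above those at 10 mM and overlapped with those at 1 mM, and with the length trend removed ITGB8 was lower at 10 mM than at 1 mM by 0.21 (adjusted p = 0.00378). Against acetate, 10 mM glucose was lower for ITGB1 by 0.35 (SE 0.10, adjusted p = 0.00606) and for ITGB8 by 0.31 (SE 0.09, adjusted p = 0.00686, or 0.0545 when scaled by library totals). ITGB2 and ITGB4 were not called in any comparison with all libraries, but with the length trend removed ITGB2 was lower with acetate by 0.54 (adjusted p = 0.0476).

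**Figure D5:**
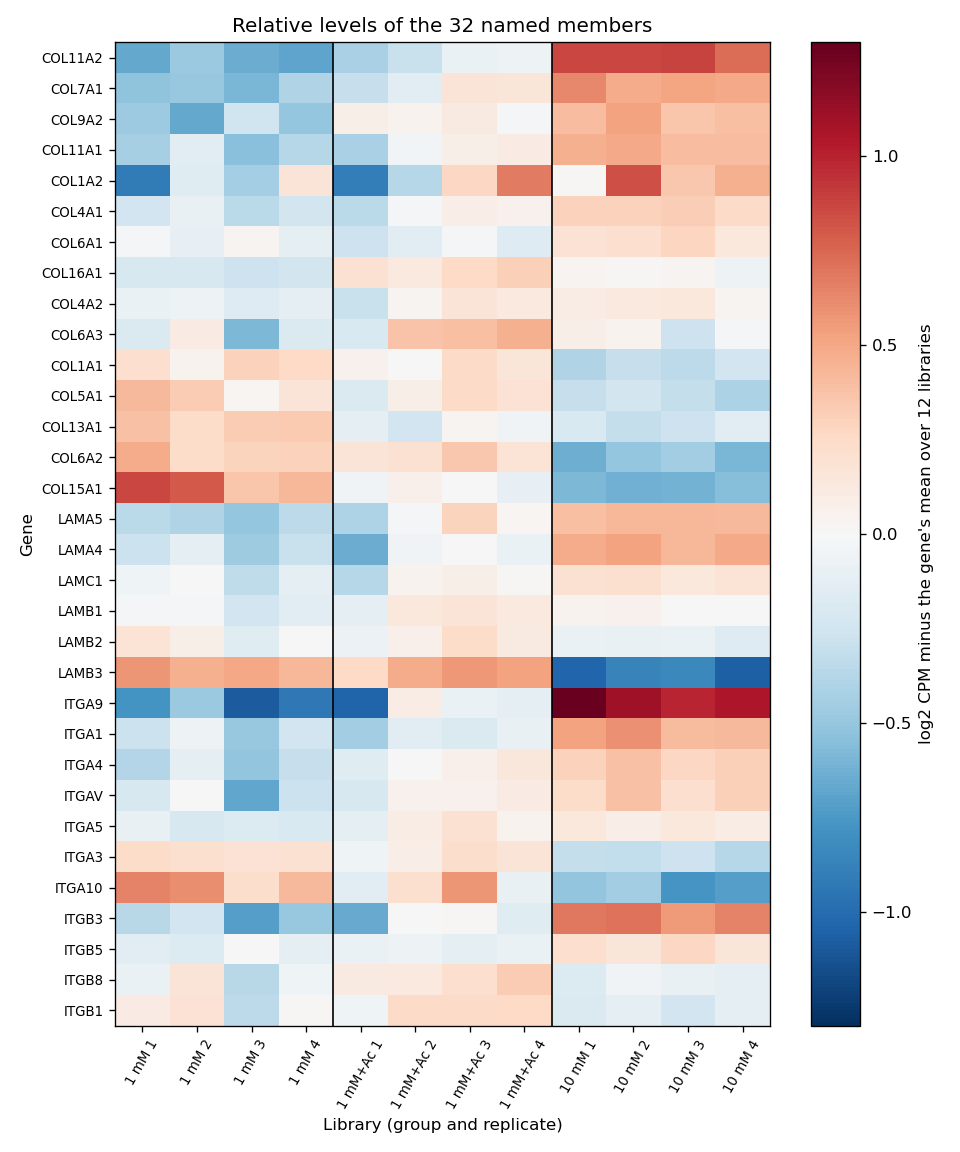
Log2 CPM of 32 members minus each gene's mean over the 12 libraries (colour, red higher and blue lower), with genes in rows by family and libraries in columns by group and replicate. The 10 mM block is red for COL11A2, LAMA4, ITGA9 and ITGB3 and blue for COL6A2, COL15A1, LAMB3 and ITGA10, and acetate replicate 1 is bluer than its group for many rows.

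With acetate, 17 members passed the test. Against 1 mM glucose alone, 11 of 65 (16.9%) were higher and 6 (9.23%) lower, against 6.65% and 7.09% of all genes tested, and the 26.2% called compares with a background of 13.7%. The median log2 fold change of the members was 0.11, beside 0.00 for all genes. The higher members were 6 collagens, 1 laminin and 4 integrin alpha subunits, and the lower ones 4 collagens and 2 laminins. For the 7 beta subunits edgeR made 0 calls at an adjusted p under 0.05, 2 had an unadjusted p under 0.05 (ITGB2 and ITGB8), and DESeq2 and limma-voom each called 1, ITGB8; without the pair of libraries that stood apart edgeR called 3, ITGB1, ITGB3 and ITGB8, all higher. The count of higher members depends on single libraries: it was 23 without acetate replicate 1, 26 without the pair that stood apart, and 7 without 1 mM replicate 4. Of all genes, 20.4% were called without acetate replicate 1 and 8.8% without 1 mM replicate 4. Without the pair, 25.8% of all genes were called. The members that gained an acetate call in this way, all higher, were COL11A1 (0.36, adjusted p = 1.70e-04), COL4A1 (0.23, adjusted p = 0.00179), COL4A2 (0.20, adjusted p = 0.00296), COL6A3 (0.49, adjusted p = 0.0074), COL12A1 (0.23, adjusted p = 0.0262), COL18A1 (given above), COL22A1 (0.20, adjusted p = 0.0317), LAMA4 (0.18, adjusted p = 0.0121), LAMB1 (0.20, adjusted p = 0.00249), ITGA6 (0.14, adjusted p = 0.0435), ITGA9 (0.68, adjusted p = 6.47e-05), ITGAV (0.23, adjusted p = 0.00992), ITGB1 (0.15, adjusted p = 0.0274), ITGB3 (0.32, adjusted p = 6.46e-04) and ITGB8 (0.21, adjusted p = 0.015). With all 12 libraries ITGA9 had an adjusted p of 0.0613 and COL11A1 of 0.0606. With the length trend removed instead, 11 members gained an acetate call, in both directions. COL5A1 (-0.22, adjusted p = 0.00345), ITGA10 (-0.35, adjusted p = 0.0494), ITGA11 (-0.43, adjusted p = 0.043) and ITGB2 (-0.54, adjusted p = 0.0476) were lower. COL11A1, COL4A1, COL6A3, LAMB1, ITGA9, ITGAV and ITGB8 were higher.

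COL8A2, the second type VIII chain, had the largest change with acetate. It read 1.10, 1.15, 1.48 and 1.06 CPM at 1 mM, 2.51, 3.40, 3.25 and 2.80 with acetate, and 0.851, 1.34, 1.09 and 1.31 at 10 mM. All 4 acetate libraries were above the other 8, which overlapped. It was 2.48-fold higher with acetate than at 1 mM glucose (log2 1.31, SE 0.16, adjusted p = 1.55e-04), and 10 mM glucose gave -0.06 (SE 0.19, adjusted p = 0.801). The difference between the treatments was itself past the threshold, with 10 mM lower than acetate by 1.37 (SE 0.16, adjusted p = 3.65e-06). COL24A1, a minor fibrillar chain, was lower with acetate by 0.72 (SE 0.18, adjusted p = 0.0172, or 0.0572 without acetate replicate 3). COL4A5 rose by 0.38 (SE 0.10, adjusted p = 0.0221) with acetate, with an adjusted p up to 0.0738 without single libraries. LAMA5 rose by 0.39 (SE 0.12, adjusted p = 0.0428). The LAMA5 call was lost without any 1 library other than acetate replicate 1, with an adjusted p up to 0.133 without acetate replicate 3. It was also lost with limma-voom (adjusted p = 0.0653) and with the replicate block (adjusted p = 0.0664). With only the 8 libraries compared in the fit, the acetate calls of LAMA5 (adjusted p = 0.114) and ITGA5 (0.0727) were lost. Those of COL4A5 (adjusted p = 0.0685) and COL9A1 (0.0583) were lost in that fit too.

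The direct comparison of 10 mM glucose with acetate tests whether the treatments differ. Of the 65 members, 26 (40%) were higher at 10 mM and 16 (24.6%) lower, against 31.0% and 31.8% of all genes tested, and the 64.6% called was near the background of 62.8%. COL6A2 (log2 -0.77), LAMB3 (-1.41), ITGA3 (-0.43) and COL5A1 (-0.40) were lower at 10 mM than with acetate. ITGA9 (1.34), ITGB3 (0.82), COL9A3 (0.73), ITGA1 (0.70) and LAMA4 (0.66) were higher. COL13A1 (adjusted p = 0.092), ITGA5 (adjusted p = 0.467) and COL4A2 (adjusted p = 0.386) did not pass this test. Without the pair that stood apart, COL6A3 (-0.45, adjusted p = 0.00174) and LAMB1 (-0.12, adjusted p = 0.0167) were also lower, and COL19A1 (0.17, adjusted p = 0.0196) and ITGA6 (0.14, adjusted p = 0.0155) also higher. The comparisons with 1 mM glucose share the same control libraries, so their values are set side by side here and no overlap is drawn from them.

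Enzymes and chaperones that fold procollagen in the endoplasmic reticulum were called in both directions. Of 19 listed and tested, 6 were higher and 10 lower with glucose (median log2 -0.23), in a comparison where 33.7% and 33.8% of all genes were. P4HB, the beta subunit of prolyl hydroxylase, went from 3165 ± 193 CPM to 1787 ± 52.7 (SD, 4 libraries each), a fall of 0.83 (SE 0.05, adjusted p = 5.72e-09), and the prolyl isomerase PPIB fell by 1.12 (SE 0.09). P4HA1 (0.47), PLOD1 (0.53) and the collagen galactosyltransferase GLT25D1 (0.56) rose. SERPINH1, the collagen chaperone HSP47, was not called for glucose (adjusted p = 0.056) and fell by 0.30 (SE 0.07, adjusted p = 0.0135) with acetate, where 1 of the 19 was higher and 2 lower. Of 7 tested genes that trim or crosslink collagen, 5 were higher and 1 lower with glucose, among them ADAMTS3 (1.06) and PCOLCE2 (0.95), with LOX lower (-0.73).

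The members' neighbours in the matrix and at the membrane were called in both directions. Of 23 tested matrix proteins of other families, 9 were higher and 7 lower with glucose. NID1, which bridges laminin and type IV collagen, rose by 1.02 (SE 0.09, adjusted p = 8.32e-08) and by 0.27 with acetate (adjusted p = 0.0497), and fibronectin, FN1, fell by 0.47 (SE 0.14, adjusted p = 0.00881) with glucose. Among 25 cytoplasmic partners of integrins, 7 were higher and 11 lower with glucose, and 1 higher and 7 lower with acetate; over all genes 67.5% were called for glucose, and 6.65% were higher and 7.09% lower with acetate. VCL, vinculin, fell by 0.93 (SE 0.09) and FERMT2, kindlin-2, by 0.91 (SE 0.06) with glucose, whereas TNS3, tensin-3, rose by 1.39 (SE 0.10). Of 11 other receptors for collagen and laminin, 2 were higher with glucose, SDC1 (1.29) and DAG1 (0.84), and 4 were lower, DDR2 (-1.05), SDC4 (-0.64), CD44 (-0.47) and BCAM (-0.25).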

How the data were processed

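RNA from the 12 libraries was sequenced with standard Illumina libraries, per the labels' protocols. The authors deposited raw counts per RefSeq transcript, made on hg19 per the submitters' processing notes; aligner, counter and strand setting were not given in the sources used here, so reads of a gene and of an overlapping antisense gene cannot be told apart. The authors' marked transcript stood for its gene (80 of the 81 members), otherwise the one with the highest total. Genes kept by filterByExpr (14416) were fitted together in edgeR 4.0.16 (R 4.3.3; TMM, quasi-likelihood F test, 1 mean per group), with Benjamini-Hochberg adjusted p over all of them and calls at under 0.05; the common biological coefficient of variation was 8.51%. A value written as log2 or as a rise or fall is the fitted log2 fold change. Lengths came from GENCODE v29 by accession (79 members) or symbol (2, COL1A1 and COL24A1). Alternatives used DESeq2 1.42.0 and limma 3.58.1, other filters and scalings, a length offset, a replicate block and leaving out libraries; the fits were tested on simulated data. Members and gene lists were chosen with earlier results of these data known. The naming rule took 32 members, given per library or by range: the strongest glucose calls at 5 CPM or more in each family, the 6 largest acetate calls at that level, and 19 chosen by name; COL8A1, COL8A2, COL9A1, COL9A3, COL2A1, COL4A5, COL12A1, COL27A1, ITGA2B, ITGA6, ITGA7 and LAMA1 were added after their values were seen. The values of 1 member are not reported here.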

Additional observations from a re-analysis of the deposited data

Results flagged for a closer look

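Within each group, 7 of 96 gene and group combinations held 1 library far from the other 3, where chance alone flags about 1 in 20. In 5 of the 7 it was acetate replicate 1, the lowest each time: ITGB1 at 859 CPM against 1060 to 1065, LAMA4 at 221 against 326 to 345, LAMB1 at 781 against 924 to 952, LAMC1 at 472 against 617 to 641, and COL6A3 at 2.96 against 4.39 to 4.65. In the other 2 it was 10 mM replicate 4, with COL11A2 at 23.2 CPM against 25.5 to 25.7 and LAMB2 at 131 against 138 to 139. Acetate replicate 1 also belongs to the pair of libraries in which levels fell with transcript length. The other library of that pair, 1 mM replicate 3, was not flagged. The part of the relation with length in the flagged values was not tested.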

How the results depend on the processing

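Acetate counts moved most. Members called higher with acetate, 11 with all libraries, were 17 when scaled by library totals and 18 with the length trend removed. They were 19 with that and a replicate block together, and 26 without 1 mM replicate 3 and acetate replicate 1. Leaving out 1 library gave 7 (without 1 mM replicate 4) to 23 (without acetate replicate 1). The share of all genes called for acetate moved as well. It was 13.7% with all libraries, and 14.6%, 22.0%, 22.6% and 25.8% in the other settings in the order given. Without 1 mM replicate 4 it was 8.8%, and without acetate replicate 1 it was 20.4%. A fit of only the 8 libraries compared, without those at 10 mM, tested 63 members for acetate. It called 8 of them higher and 5 lower, and 7.5% of all genes. Members called lower with acetate, 6 with all libraries, were 2 with a filter of 5 CPM, where 44 members were left, and 10 with the length trend removed. The replicate block gave 34 higher and 11 lower for glucose, 9 and 6 for acetate, and 27 and 15 for 10 mM glucose against acetate. Of all genes, 66.7%, 12.35% and 61.7% were called with that block, in the same order. Replicate numbers were not taken as pairs in the main fit. Deviations of same-numbered libraries correlated at -0.365 to 0.27 (median 0.01), 3 of 12 pairs being over 0.1. Those of differently numbered libraries correlated at -0.547 to 0.591 (median 0.02). The libraries that stood apart are in these correlations, so they cannot exclude a pairing.

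Of the 45 members called for glucose, 37 kept the call in every setting that tested them, as did 11 of 17 for acetate and 36 of 42 for 10 mM glucose against acetate; no called value of the 32 members reversed in sign, while some that were not called, such as LAMB3 with acetate (-0.03, or 0.04 without the pair), did. Single libraries ended these calls: for glucose COL19A1, COL21A1, COL4A2, COL4A6, ITGA2, ITGA11 and LAMC3, for acetate COL24A1, COL4A5, COL9A1, ITGA2B, ITGA5 and LAMA5, and for 10 mM glucose against acetate ITGA2, ITGAV, LAMB2 and LAMC1. Where no value is given beside a change, the cause was not tested. Counting error is small for abundant members, but the 21 tested members under 1 CPM per kb rest on few counts.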
